A study of Mus musculus with 2 samples.

Results

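The imprinted Dlk1-Dio3 microRNA cluster is a row of small RNA hairpin genes on mouse chromosome 12, and it was described here in whole heart. Its members were the 45 microRNA genes of the deposited counts whose identifiers carry the symbols of this cluster in the GENCODE M21 annotation. All 45 were found among the 2202 microRNA genes of the counts, and all 45 lie on the plus strand, from Mir770 at chr12:109563692-109563785 to Mir410 at chr12:109743715-109743795 of mm10. Small RNA was sequenced from the hearts of male B6CASTF1/J mice, an F1 hybrid of the strains C57BL/6J and CAST/EiJ, at 2 months of age. There were 2 libraries of total RNA with inserts limited to short sizes, treated here as 1 per animal. The labels number them as biological replicates and describe them as different males, yet give both the same donor identifier. They name no treatment, so the 2 libraries form 1 group and there is no contrast between conditions. The counts were not split by parental allele, so imprinting itself was not measured.

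In this region the protein-coding genes Dlk1, Rtl1 and Dio3 are known to be expressed from the paternal chromosome. The long non-coding RNAs Meg3, Rian and Mirg and the microRNAs are expressed from the maternal chromosome, and the microRNAs are thought to be cut from long transcripts that run through these genes. The microRNAs that lie opposite Rtl1 are fully complementary to its messenger RNA and are known to direct its cleavage. Other members are best known from brain and placenta, and several have been studied in the growth of heart muscle cells around birth. A mature microRNA finds its targets mainly through the seed, bases 2 to 8 from its 5′ end.

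The mature sequences below are those of the most counted members and of the pairs that resemble each other most. They are RNA sequences of RefSeq on GRCm38.p6, 5′ to 3′, with the seed in capitals. RefSeq lists 86 mature sequences for the 45 members, 2 for 41 members and 1 for the other 4. Mir127, the most counted member, gives miR-127 from either arm of its hairpin, and these sequences have no seed in common with any other member.
mmu-miR-127-5p: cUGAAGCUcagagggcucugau
mmu-miR-127-3p: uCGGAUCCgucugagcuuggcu

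The next most counted members were Mir411, Mir541 and Mir379. The 3p sequences of Mir379 and Mir411 share a seed and differ only at U10C and U22C, counted from the 5′ end with the base of miR-379-3p first. The uncounted Mir758 has a 3p sequence that differs from miR-379-3p at A2U, A6G and A9C over the 19 bases compared, so its seed is another.
mmu-miR-541-5p: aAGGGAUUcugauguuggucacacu
mmu-miR-379-3p: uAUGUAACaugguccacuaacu
mmu-miR-411-3p: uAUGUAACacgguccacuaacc
mmu-miR-758-3p: uUUGUGACcugguccacua

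Seeds were seldom shared within the cluster. The 86 mature sequences held 83 seeds, and 3 seeds occurred in 2 members each, with none in more. Besides Mir379 with Mir411 these were Mir376c with Mir376b, whose 5p sequences differ only at U19G, and Mir494 with Mir410, whose 5p sequences differ at C9U, U13A, U16A, C17G and U21G.
mmu-miR-376c-5p: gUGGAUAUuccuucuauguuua
mmu-miR-376b-5p: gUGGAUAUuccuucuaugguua
mmu-miR-494-5p: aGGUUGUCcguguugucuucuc
mmu-miR-410-5p: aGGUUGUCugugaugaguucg

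Other pairs were nearly identical outside the seed and differed within it. The 3p sequences of Mir300 and Mir381 differ at G4A, U21G and C22U, and those of Mir376b and Mir376a at A4G, C13A and U20G. The first change of either pair lies in the seed, so the members of each pair carry different seeds.
mmu-miR-300-3p: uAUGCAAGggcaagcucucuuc
mmu-miR-381-3p: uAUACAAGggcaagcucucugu
mmu-miR-376b-3p: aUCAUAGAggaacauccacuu
mmu-miR-376a-3p: aUCGUAGAggaaaauccacgu

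None of the 86 mature sequences was found whole in the hairpin of a microRNA gene at another place. This bears on the counts, because a read that maps to several places enters no gene row. Only 5 members share a stretch of 20 bases or more with a microRNA gene elsewhere: Mir376c and Mir376b share 31 bases with each other, Mir411 and Mir758 share 21, and Mir487b shares 20 with Mir376b. Reads that fall wholly within such a stretch are missing from the levels of these members. For the other 40 members the longest shared stretch was shorter, with a median over all 45 of 13 bases. Sequence outside microRNA genes was not searched.

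Replicate 1 held 10362589 reads and replicate 2 held 10483233, of which 3650782 and 3810675 lay on the strand of a microRNA gene. Levels are given in CPM, counts scaled to a total of 1000000 over all microRNA genes of a library, so 1 read was 0.274 CPM in replicate 1 and 0.262 CPM in replicate 2. The tissue label was checked against heart muscle microRNA genes. Mir208a had 1329 CPM in replicate 1 against 4265 in replicate 2, and Mir499 had 2601 against 2507. The other 5 of the 7 heart muscle genes were far lower, with means from 2.15 CPM for Mir133a-2 to 71.1 CPM for Mir208b. Among them, Mir1a-1 with Mir1a-2 and Mir133a-1 with Mir133a-2 are paired copies, and reads that map to both copies enter no gene row. Their low counts therefore do not show low levels of these microRNAs. Of the neuronal list, 3 of 9 genes reached the detection limit of 2 CPM in both libraries, led by Mir128-1 at a mean of 223 CPM, and its summed level was 309 and 291 CPM. Mir9-3 of that list differed widely, with 101 counts in replicate 1 against 1 in replicate 2. The Mir124a genes had no count, but copies of a microRNA gene with the same mature sequence lose their reads to the multiply mapped class, so these 0 counts do not show that neuronal RNA was absent. In whole tissue, fewer cells of a type and less RNA per cell cannot be told apart.

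The summed cluster had nearly the same level in both libraries, and it was a small part of the microRNA counts. It had 11387 counts in replicate 1, or 0.312% of the microRNA gene counts (Clopper-Pearson 95% interval 0.306 to 0.318). In replicate 2 it had 11804 counts, or 0.310% (0.304 to 0.315). These intervals overlap, and they cover counting error only, since reads and not molecules were counted. The summed level was 3119 CPM in replicate 1 against 3098 CPM in replicate 2, which is 0.993 times as high.

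Most members had counts, at low levels. A level of 2 CPM or more in both libraries was reached by 38 of the 45 members, or 84.4%. Over all 2202 microRNA genes it was reached by 337, or 15.3%. The members were chosen with earlier results of these data known, so the gap between these shares may depend on that choice. The median member was at 13.1 CPM. Among detected genes, the median was 22.1 CPM for members and 54.1 CPM for all genes, so members were often detected and seldom abundant. By mean level, 9 members were at 100 CPM or more, 17 between 10 and 100 CPM, 17 below 10 CPM with counts, and 2 had no count in either library. Among all genes Mir127 ranked 64th by mean CPM, and 3 members were within the first 100.

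**Figure D1:**
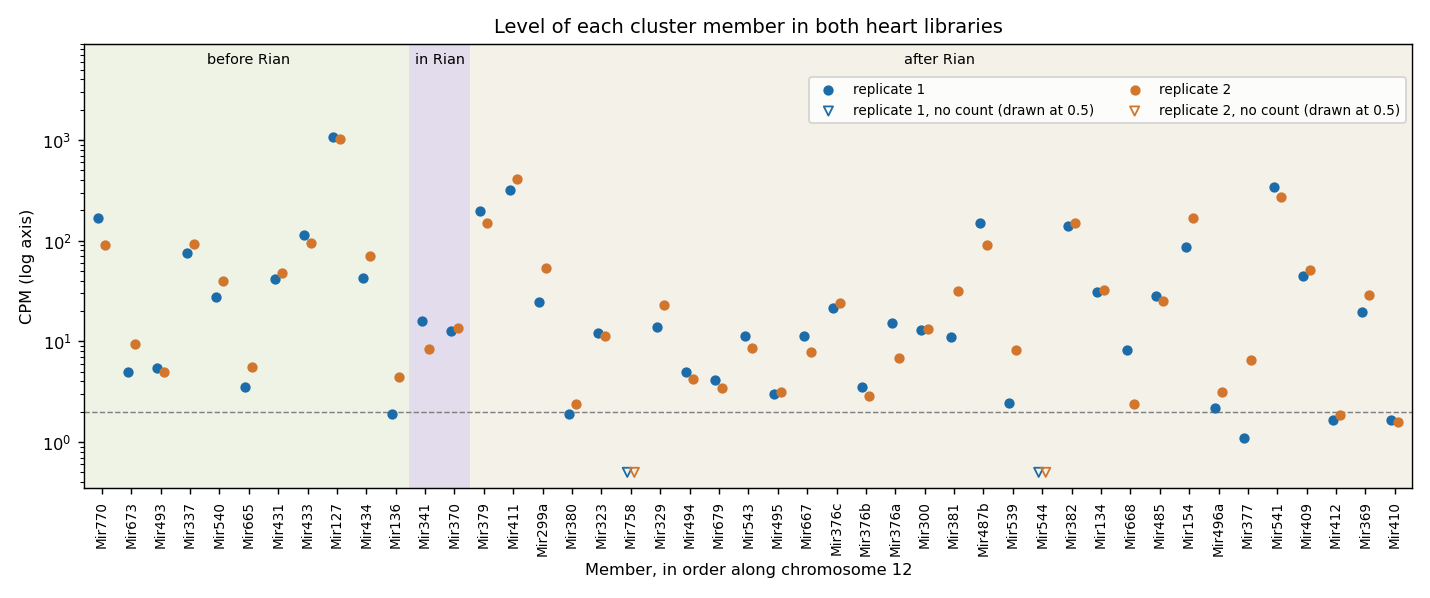
Each of the 45 members is placed in its order along chromosome 12, with its level in CPM on a log axis and 1 point per library; shading marks the stretches before, inside and after Rian, and the dashed line is the detection limit of 2 CPM. Mir127 stands highest at 1084 and 1013 CPM, and Mir758 and Mir544, drawn as open triangles, had no count.

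Counts were concentrated in few members. Mir127 had 3958 counts in replicate 1 and 3861 in replicate 2, or 1084 and 1013 CPM, with a mean of 1049 CPM ± 50.2 (SD, n = 2). It alone held 34.8% of the cluster counts in replicate 1, with a Clopper-Pearson 95% interval of 33.9 to 35.6. In replicate 2 the same share was 32.7%, with an interval of 31.9 to 33.6. The 3 most counted members, Mir127, Mir411 and Mir541, together held 55.8% and 54.7%, and the first 10 held 85.6% and 81.8%. Library preparation recovers some small RNAs better than others, and no correction was made for this, so ratios between members are ratios of counts. A read spans a mature microRNA, and levels were therefore not divided by hairpin length, which ran from 61 to 124 bases.

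The position of Rian divides the members into 3 stretches of unequal number and near equal weight at the ends. Before Rian, 11 members held 50.3% of the cluster counts in replicate 1 and 47.6% in replicate 2, or 48.9% ± 1.92 (SD, n = 2). After Rian, 32 members held 48.8% and 51.7%, or 50.3% ± 2.06. The order of these stretches therefore differed between the libraries, and no order is given. Inside Rian, Mir341 and Mir370 together held 0.913% and 0.712%, below the other stretches in both libraries. The balance rested on Mir127: without it, the members before Rian held 22.9% of the remaining counts, those after it 75.8%, and those inside it 1.23%.

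Before Rian, the counts lay mainly opposite Rtl1, and there mainly in Mir127, with 3958 and 3861 counts. Without Mir127, the other members opposite Rtl1 had fewer counts than the remaining members before Rian in both libraries. The 5 members within the span of Rtl1, on the other strand, are Mir431, Mir433, Mir127, Mir434 and Mir136, and their sum was 4688 counts in each library, or 41.2% and 39.7% of the cluster. Mir433 was at 113 and 94.2 CPM, Mir434 at 43.0 and 70.3 CPM, and Mir431 at 41.9 and 48.0 CPM. Mir136, the member of this row farthest along the plus strand, had 7 and 17 counts and was below 2 CPM in replicate 1. Mir431 and Mir434 were close in level in replicate 1, while Mir434 was the higher in replicate 2. Mir127 stood above the rest of the row and Mir136 below it in both libraries. Mir127 exceeded Mir433, 1007 bases before it, by 9.58 and 10.8 times in replicates 1 and 2, and it exceeded Mir434, 1590 bases after it, by 25.2 and 14.4 times.

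The other members before Rian lie in Meg3, a long non-coding RNA of the maternal chromosome, or between it and Rtl1. Mir770 overlaps an exon of an annotated Meg3 transcript and is the only member there, at 167 CPM in replicate 1 and 90.5 CPM in replicate 2. Between Meg3 and Rtl1, Mir337 was at 75.3 and 93.7 CPM and Mir540 at 27.7 and 39.4 CPM. Mir673, Mir493 and Mir665 were lower, with mean levels of 7.19, 5.23 and 4.54 CPM. These 5 together held 3.75% of the cluster counts in replicate 1 and 4.94% in replicate 2. Mir770 alone held 5.37% and 2.92%, more than the 5 in replicate 1 and less in replicate 2.

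Inside Rian, the annotation places Mir341 and Mir370 in introns. Rian is better known as the host of many small nucleolar RNAs. Mir341 had 58 counts in replicate 1 and 32 in replicate 2, or 15.9 and 8.40 CPM, and Mir370 had 46 and 52 counts, or 12.6 and 13.6 CPM. Their order turned between the libraries. A gap of 90.7 kb without a member follows, from Mir370 to Mir379, the widest in the cluster.

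After Rian, the 20 members that precede the annotated start of Mirg held 26.3% of the cluster counts in replicate 1 and 27.6% in replicate 2. Mir411 and Mir379, the first members of this row, led it. Mir411 was at 316 and 408 CPM and Mir379 at 199 and 151 CPM, so Mir411 was the higher in both libraries, by 1.59 and 2.69 times. Mir487b followed at 151 and 91.1 CPM, and Mir299a was at 24.7 and 54.1 CPM. The remaining 16 of these members were all below 40 CPM in both libraries, among them Mir376c at 21.4 and 23.9 CPM, Mir329 at 14.0 and 22.8 CPM, Mir300 at 12.9 and 13.4 CPM and Mir323 at 12.1 and 11.3 CPM.

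The last 12 members lie within the span of Mirg on its strand, 8 of them overlapping an exon of an annotated Mirg transcript and 4 in introns. They held 22.5% of the cluster counts in replicate 1 and 24.1% in replicate 2. Mir541, in an intron, was at 339 and 274 CPM. Mir382, which overlaps an exon, was at 139 and 151 CPM, and Mir154, in an intron, was at 85.7 and 168 CPM. Mir134, known for limiting the size of dendritic spines in neurons, was at 31.0 and 32.3 CPM, and Mir485, studied at synapses, at 28.2 and 25.5 CPM. Mir409 was at 44.9 and 51.7 CPM and Mir369 at 19.7 and 29.1 CPM, while Mir668, Mir377, Mir496a, Mir412 and Mir410 had means below 10 CPM.

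Close neighbours often differed widely in level. Of the pairs of members next to each other, 21 lie less than 1000 bases apart, and 19 of these had more than 3 counts for each member in each library. In 10 of the 19 pairs the levels differed by more than 5 times in the same direction in both libraries, and in 2 pairs they differed by less than 2 times in both. The closest members were Mir412 and Mir369, 49 bases apart, with Mir369 higher by 12 and 15.9 times. Mir409 exceeded Mir412, 52 bases from it, by 27.3 and 28.1 times, and Mir154 exceeded Mir496a, 620 bases from it, by 39.1 and 53.3 times. Mir494 and Mir679, 174 bases apart, were at nearly the same level, with Mir494 higher by 1.20 and 1.23 times, on counts of 13 to 18. Members with few counts enter these ratios, so their sizes are uncertain.

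Paralogous members also differed in level. Mir376c, with 78 and 91 counts, exceeded Mir376b, with 13 and 11, by 6 and 8.27 times, although reads within their shared 31 bases enter neither row. Mir376a had 55 and 26 counts. Mir410, which shares a 5p seed with Mir494, had 6 counts in each library, and Mir494 had 18 and 16. Mir300 was near constant, with 47 and 51 counts, while Mir381, whose 3p sequence differs from it at 3 bases, had 40 and 122. Counts are for whole hairpins, so the arm that the reads came from is not known.

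Across the 45 members, level was only weakly related to the features at hand, given as descriptions over members that share their libraries. Spearman's rho of mean level was 0.18 with the GC content of the hairpin, 0.15 with its length, -0.14 with the longest stretch shared elsewhere and -0.19 with the order along the chromosome (n = 45 members each). GC content itself differed along the cluster, with a median of 56.5% before Rian and 42.4% after it. Hairpins ranged from 29.1% GC in Mir376c to 70.2% in Mir770. The 86 mature sequences begin with U in 33 cases, A in 31, C in 11 and G in 11.

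The 7 members below the detection limit were Mir758, Mir544, Mir410, Mir412, Mir380, Mir136 and Mir377. Mir758 and Mir544 had no count in either library, an upper limit of 0.822 CPM in the first library and 0.787 CPM in the second, set by 3 counts, for reads with 1 place in the genome. Mir758 shares 21 bases with Mir411, and reads within that stretch are not covered by this bound. Mir410 had 6 counts in each library and Mir412 had 6 and 7, so both were below 2 CPM in each. Mir380, with 7 and 9 counts, Mir136, with 7 and 17, and Mir377, with 4 and 25, were below it in replicate 1 only. Mir410 and another member, Mir495, have been studied in the proliferation of heart muscle cells. Mir495 had 11 and 12 counts, or 3.01 and 3.15 CPM.

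For 7 members, counts were present only where strand was taken into account. Mir337, Mir136, Mir299a, Mir380, Mir376a, Mir539 and Mir409 each overlap a microRNA gene annotated on the opposite strand, and without regard to strand a read there belongs to more than 1 gene and is counted for neither. On the strand of the gene Mir337 had 275 and 357 counts, Mir409 had 164 and 197, and Mir299a had 90 and 206. Without strand all 7 had 0 counts in both libraries. The genes on the opposite strand were almost empty: Mir3544, opposite Mir337, had 1 count in replicate 1 and 0 in replicate 2, and the other 6 had none. Over all 45 members, reads on the opposite strand numbered 1 in replicate 1 and 0 in replicate 2, below the 3 counts that a count of 0 allows.

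**Figure D2:**
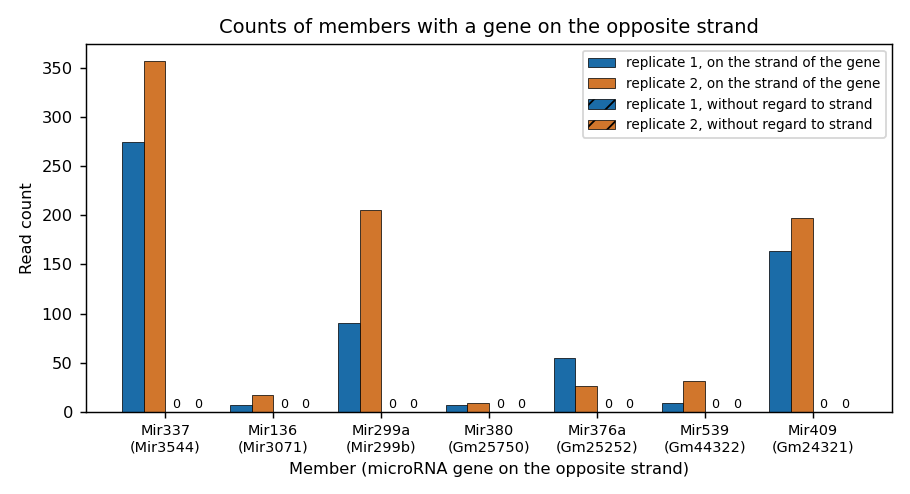
Read counts of the 7 members that overlap a microRNA gene on the opposite strand (named in brackets), per library, on the strand of the gene (plain bars) and without regard to strand (hatched, all at 0). Mir337 is highest on its strand at 275 and 357 counts, and every count is 0 without strand.

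The same interval holds other microRNA genes, which are not on the member list. They were taken by position, from the start of Meg3 at chr12:109541001-109571726 to the end of Mirg at chr12:109729764-109749460. There are 21 of them, 14 on the plus strand and 7 on the minus strand, and each of the 7 lies opposite a member. Together they had 36 counts in replicate 1 and 48 in replicate 2, against 11387 and 11804 for the members. The member list was chosen with earlier results of these data known, so this contrast may depend on that choice. Only 2 of the 21 reached 2 CPM in both libraries: Mir1193, beside Mir679, at 3.29 and 7.09 CPM, and Mir666, beside Mir543, at 5.48 and 3.67 CPM. Mir3072, within Mirg, followed with 2 and 6 counts, and 15 had no count in either library, among them Mir432, Mir654, Mir1197 and Mir453.

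Single members differed between the libraries, in both directions, beside a cluster sum that was nearly equal. Each gene's counts in the 2 libraries were compared by an exact two-sided binomial test against the TMM library sizes of edgeR, with Benjamini-Hochberg adjustment over the 320 genes past the filter on low counts. This test asks whether 2 libraries differ beyond counting noise and says nothing of a condition, and differences between animals and between library preparations cannot be told apart. Of the 45 members 35 passed the filter, and 18 of these, or 51.4%, differed at an adjusted p under 0.05, against 64.4% of all genes tested. Of the members, 10 were higher in replicate 2, where the share over all genes was 30.6%, and 8 were higher in replicate 1, where it was 33.8%. The 3 stretches all held members that differed: 7 of 10 tested before Rian, 1 of 2 inside it and 10 of 23 after it.

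Mir381 had the largest ratio toward replicate 2 among the members tested. Its counts were 40 and 122, a log2 ratio of 1.49 (exact binomial test, adjusted p = 1.3e-09). Mir299a had 90 and 206 counts and was 2.17 times higher in replicate 2 after scaling (exact binomial test, adjusted p = 6.59e-10), and Mir154 had 313 and 639, a log2 ratio of 0.95 (exact binomial test, adjusted p = 2.37e-22). Mir673 and Mir434 followed with log2 ratios of 0.86 and 0.69. The other members higher in replicate 2 were Mir329, Mir369, Mir540, Mir411 and Mir337, with log2 ratios from 0.30 for Mir337 to 0.68 for Mir329.

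Toward replicate 1 the largest ratio was that of Mir376a, with 55 and 26 counts, which was 2.23 times higher in replicate 1 after scaling (exact binomial test, adjusted p = 0.00104). Mir770 had 611 and 345 counts, a log2 ratio of -0.90 (exact binomial test, adjusted p = 1.35e-20), Mir341 had a log2 ratio of -0.89, and Mir487b had 552 and 347 counts, a log2 ratio of -0.74 (exact binomial test, adjusted p = 9.56e-14). Mir667 came next at -0.50, with 41 and 30 counts, and did not pass the test (exact binomial test, adjusted p = 0.221). Mir379, Mir541, Mir433 and Mir127 were also higher in replicate 1, by smaller ratios of -0.41, -0.32, -0.28 and -0.11. Without the filter on low counts, which also changes the TMM library sizes, Mir433 and Mir127 lost the call, at log2 ratios of -0.20 and -0.03. Some neighbours moved in opposite directions: Mir379 was higher in replicate 1 and Mir411, 1049 bases from it, in replicate 2. Within the Rtl1 row, Mir127 was higher in replicate 1 and Mir434, next to it, in replicate 2. Other neighbours moved together. Mir337 with Mir540, and Mir411 with Mir299a, were higher in replicate 2, and Mir433 with Mir127 in replicate 1.

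**Figure D3:**
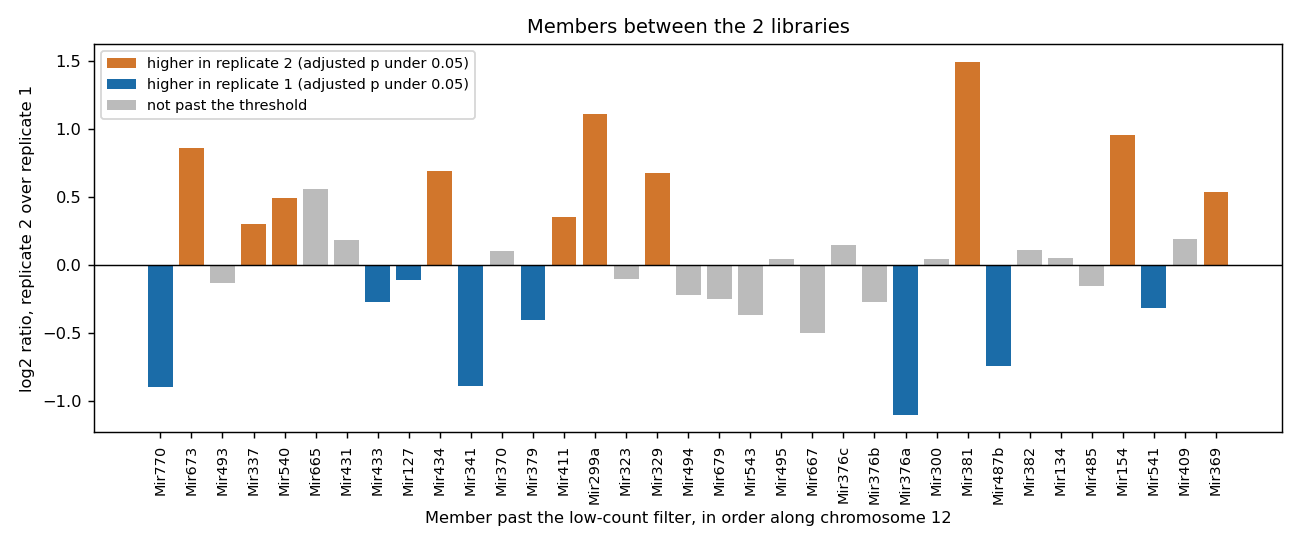
Bars give the log2 ratio of scaled CPM + 0.5, replicate 2 over replicate 1, for the 35 members past the low-count filter in order along chromosome 12; colour marks members past an adjusted p of 0.05 in the exact binomial test. Mir381 reaches 1.49, Mir376a has the lowest ratio, and bars in either direction lie side by side along the cluster.

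The median absolute log2 ratio was 0.32 over the 35 members and 0.42 over all 320 genes tested. Only 3 members, Mir381, Mir299a and Mir376a, passed the test and differed by more than 2 times, against 18.1% of all genes tested. The test has more power at higher levels, so members were also set beside genes of like level. At 100 to 1000 CPM 7 of 8 members differed, with a median absolute log2 ratio of 0.38, beside 68 of 81 among all genes with 0.41. At 10 to 100 CPM it was 9 of 17 members with 0.30, beside 62 of 110 genes with 0.50, and below 10 CPM 1 of 9 members with 0.27, beside 15 of 64 genes with 0.39.

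The 10 members that did not pass the filter were the 7 below the detection limit and Mir539, Mir668 and Mir496a. Without the filter, 3 of them differed between the libraries by the exact binomial test. In that setting 19 of 43 members tested differed, or 44.2%, against 213 of 722 genes, or 29.5%. The members were thus above the share over all genes without the filter, and below it with the filter. Mir377 had 4 and 25 counts, a log2 ratio of 2.20 (exact binomial test, adjusted p = 0.000289), Mir539 had 9 and 31, a log2 ratio of 1.60 (adjusted p = 0.00193 in the exact test), and Mir668 had 30 and 9, a log2 ratio of -1.55 (adjusted p = 0.00439 in the exact test). In the same comparison without the filter, the log2 ratio of Mir381 was 1.57.

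The order of members by level was similar in both libraries. Over the 45 members, levels in the 2 libraries had a Spearman's rho of 0.94 and, as log2(CPM + 0.5), a Pearson r of 0.96, across genes that are not independent replicates. Members spanned levels from no count to above 1000 CPM, a range far wider than the differences between libraries. The cell type marker lists differed more between the libraries than the cluster sum, which in replicate 2 was at 0.993 times its level in replicate 1. The skeletal muscle list differed most, at 43.0 CPM in replicate 1 and 308 CPM in replicate 2, or 7.16 times. This rested on Mir206 alone, at 135 and 1154 counts, since Mir133b, the other gene of the list, had 22 and 20. By the same ratio the heart muscle list was at 1.72, mainly through Mir208a, at 4851 and 16254 counts. The endothelial Mir126a was at 1.35, the smooth muscle list at 0.976 and the neuronal list at 0.944. The erythroid list was at 0.919 and the leukocyte list at 0.802. Some of these sums held genes that went opposite ways. In the smooth muscle list Mir145a had 20190 and 11254 counts, and Mir143 had 179183 and 191794. In the erythroid list Mir451a had 7027 and 4636 counts, while Mir486 had 3232 and 4827 and Mir144 had 1502 and 1817. The part of these markers in the differences of single members was not tested.

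**Figure D4:**
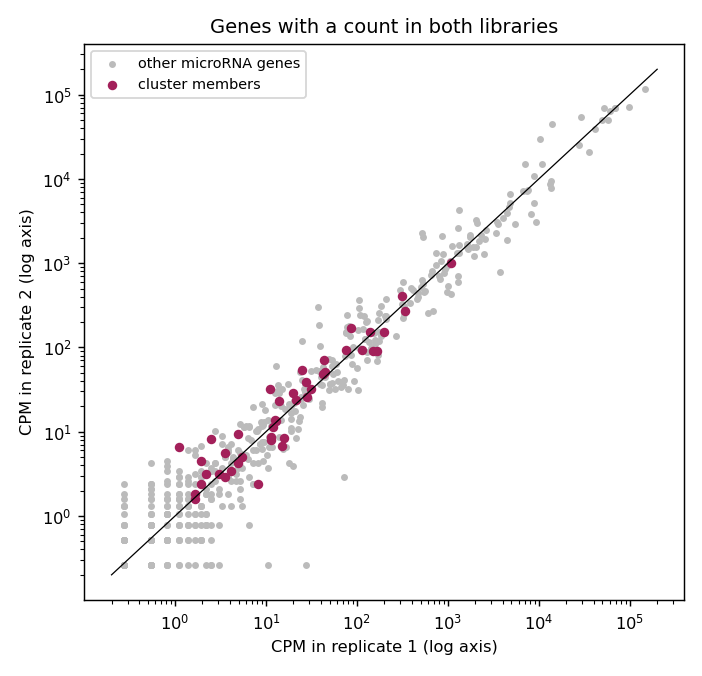
Each point is a microRNA gene with a count in both libraries, with CPM in replicate 1 and replicate 2 on log axes; cluster members are coloured and the line marks equal levels. The members lie on either side of the line among the other genes, and Mir127 is the highest of them at 1084 and 1013 CPM.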

How the data were processed

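Small RNA of whole heart was sequenced as 2 libraries. The deposited values are raw read counts per microRNA gene, placed on mm10 with the GENCODE M21 annotation per the authors' deposited text. The aligner was not given in the sources used here. Library sizes exclude the 4 summary rows: reads mapped to several places were 48.0% and 46.4% of all reads, unmapped reads 11.6% and 12.9%, and reads in no gene 5.27% and 4.32%, in replicates 1 and 2. Counts on the strand of the gene were used, and CPM were computed from them. The intervals and the floor of 3 counts cover counting error only.

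The members, gene lists and tests were chosen with earlier results of these data known. Positions and hosts came from GENCODE M21, and mature sequences from RefSeq (GRCm38.p6). Named members are those at a mean of 100 CPM or more, the 3 most abundant of each stretch, those under the detection limit, those that share a seed, the 5 with the largest ratio in each direction, and the 3 most abundant other genes of the interval. Others were named after their values were seen, to account for every member. Alternatives changed strand, denominator, detection limit, stretch borders, scaling, filter and pseudocount, and left out each replicate. Library sizes and the filter came from edgeR 4.0.16 (TMM, filterByExpr) in R 4.3.3, and DESeq2 1.42.0 gave the alternative size factors. The binomial test ran in scipy 1.17.1 under Python 3.11.15 and was tested on data simulated with counting noise only. That check does not cover variation between animals or library preparations.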

Additional observations from a re-analysis of the deposited data

How the results depend on the processing

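The cluster share of 0.311% became 0.378% without regard to strand, 0.274% of all uniquely mapped reads, 0.359% with the most abundant gene left out of the total, and 0.206% without Mir127, an alternative added after seeing the data. With 1 replicate left out it was 0.310% to 0.312%. At 10 CPM in both libraries 24 members were detected in place of 38, and at 1 CPM 43. With stretches set by overlap with Meg3 and Rtl1, Rian, or Mirg, the first held 44.6% and the last 23.3%, since members between these genes drop out, and without Mir127 the 3 stretches held 22.9%, 1.23% and 75.8%. The median member moved from 13.1 to 11.6 CPM over all uniquely mapped reads and to 15.1 CPM without the most abundant gene. The median absolute log2 ratio of members was 0.287 without strand, where 31 members were tested. The count of members that differ, 18, ranged from 15 to 19 over the 5 other settings of scaling, filter and strand. The members tested and the share over all genes changed as well. At 10 CPM in both libraries 15 of 24 members differed, or 62.5%, against 73.9% of all genes. Without strand it was 48.4% of members against 60.9%. Without the filter it was 19 of 43 members, or 44.2%, against 29.5%, so the order of the 2 shares depended on the filter. Of 170 values of single members under alternatives, levels and ratios together, 12 levels moved beyond the SD of the replicates. Among members still tested, 2 calls were lost (Mir433 and Mir127 without the filter) and none turned direction. Members no longer tested are not in this count: 15 of the 18 calls remained at 10 CPM in both libraries, and 15 without strand. Some of the 170 outcomes were fixed in advance. A level with 1 replicate left out cannot move beyond the SD of 2 libraries, and the pseudocount does not enter the test. No paired analysis was possible because there is only 1 group. Depth limits the 10 members below the filter on low counts, whose differences were not tested in the main comparison.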

Other observations

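Some seeds of the cluster also occur in mature microRNAs of other genes, a property that the counts do not bear on. Of the 86 mature sequences of the members, 16 share bases 2 to 8 with a RefSeq mature sequence of a gene that is no member. Within the same interval, miR-379-5p and miR-370-5p share theirs with the 5p and 3p sequences of Mir1193, which was at 3.29 and 7.09 CPM. Also within the interval, miR-299a-3p shares its seed with miR-299b-3p, miR-758-5p with miR-1197-5p and miR-496a-5p with miR-453. Outside it, for example, miR-329-3p shares its seed with miR-362-3p, and miR-410-3p with the 3p sequences of miR-344d and miR-344e.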
